A study of Mus musculus with 10 samples.

Results

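The genes described here are 36 genes of mitosis, the step in which a cell divides its copied chromosomes between its daughters. They were found by gene name in a table of 55487 genes, where each of the 36 names matched a single row. The table covers intestinal epithelial cells (IECs) from the colons of 5 WT mice and 5 RhoB-/- mice on the C57BL/6J background, with 1 RNA-sequencing library per mouse and no treatment named in the labels. RhoB-/- mice are homozygous knockouts of Rhob, which encodes a small GTPase, and IECs were released from colon pieces with EDTA, so the libraries are epithelial but not sorted by cell type. The methods give an age of 6 to 8 weeks for mice in general, and nothing says whether the WT mice sequenced were littermates. For the knockout mice and the purchased wild type mice they name different sources, so genotype and mouse origin cannot be told apart.

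Mitosis is started by the kinase CDK1 bound to A- and B-type cyclins. A spindle of microtubules then captures the chromosomes at protein complexes called kinetochores. The spindle assembly checkpoint holds the cell until every chromosome is attached, after which the ubiquitin ligase APC/C destroys cyclin B and the cell splits by cytokinesis, which is driven by the small GTPase RhoA. In the colon, dividing cells are found in the lower part of the crypts, and differentiated colonocytes and goblet cells above them have left the cell cycle. Most mitosis genes are transcribed mainly in the G2 phase and mitosis. In a bulk sample, fewer dividing cells and less mitotic RNA per cell cannot be told apart.

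The values are TPM, a level scaled to transcript length and to the total of each library, so that levels of different genes may be compared but the sequencing depth is lost. Rhob checked the labels: it was at 170.5 to 388.7 TPM in the WT libraries, at 0.09, 0.10, 0.35 and 0.57 TPM in RhoB-/- replicates 1 to 4, and at 110.9 TPM in RhoB-/- replicate 5, against its label. This library, labelled RhoB-/- replicate 5, is kept in the RhoB-/- group, and results without it are given below. A second library stands apart for the mitosis genes themselves. RhoB-/- replicate 3 had the highest value of the 5 RhoB-/- libraries for all 36 genes, although its Rhob level was near 0. The summed level of the 8 epithelial markers (such as Epcam and Vil1) was 9418 to 10890 TPM in WT and 8994 to 14230 TPM in RhoB-/- libraries, against 10.8 to 24.5 and 42.1 to 50.7 TPM for 10 T cell markers and at most 2.99 TPM for 7 endothelial markers.

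Mitosis genes were lower on average in RhoB-/- than in WT mice. The size of the difference and the number of genes past the test depended on the libraries included, most of all on RhoB-/- replicate 3. The log2 fold change (RhoB-/- minus WT, as a difference of mean log2(TPM + 1)) was negative for 36 of 36 genes, from -0.70 (Aurkb) to -0.35 (Cenpa), with a median of -0.55. The median of all 12870 tested genes was -0.13, and all 36 genes were below it. At an adjusted p below 0.05 (limma on log2(TPM + 1), Benjamini-Hochberg adjustment over all tested genes), 10 of the 36 genes were lower, or 27.8%, against 13.5% of all tested genes. By limma 0 were higher, against 7.73% of all tested genes, and at an unadjusted p below 0.05 there were 23 lower and 0 higher, against 24.9% and 11.9% of all tested genes. At the cut-offs of the study, an unadjusted p below 0.05 with a fold change above 1.5, 14 genes were lower, or 38.9%, against 8.33%. The cut-offs were applied here to the limma p and the fold of TPM + 1, not to the study's own test, so its gene counts are not comparable. Centring each library on its median gene moved the median of all tested genes from -0.13 to -0.01 and that of the 36 genes to -0.43, with the same number, 10, called lower. All genes then split into 12.8% lower and 15.6% higher.

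The 5 RhoB-/- libraries did not fall together. Averaged over the 36 genes, the level relative to the WT mean was -0.59, -1.0, 0.21, -0.49 and -0.80 on the log2 scale in RhoB-/- replicates 1 to 5, and 0.12, 0.07, -0.14, 0.27 and -0.31 in WT replicates 1 to 5. Replicates 2 and 5 of RhoB-/- were below every WT library for 36 of 36 genes, replicate 1 for 34 and replicate 4 for 30. Of all tested genes, 41.4%, 53.6%, 32.9% and 31.3% were below every WT library in replicates 1, 2, 4 and 5. RhoB-/- replicate 3 was below every WT library for 0 genes and above every WT library for 14. The last share, 38.9%, lies near that of all tested genes, of which 30.5% were higher in this library than in any WT library. Of the mice with a Rhob level near 0, replicates 1, 2 and 4 thus had low mitosis genes and replicate 3 did not, whereas the library that retained Rhob at 110.9 TPM was among the lowest.

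**Figure D1:**
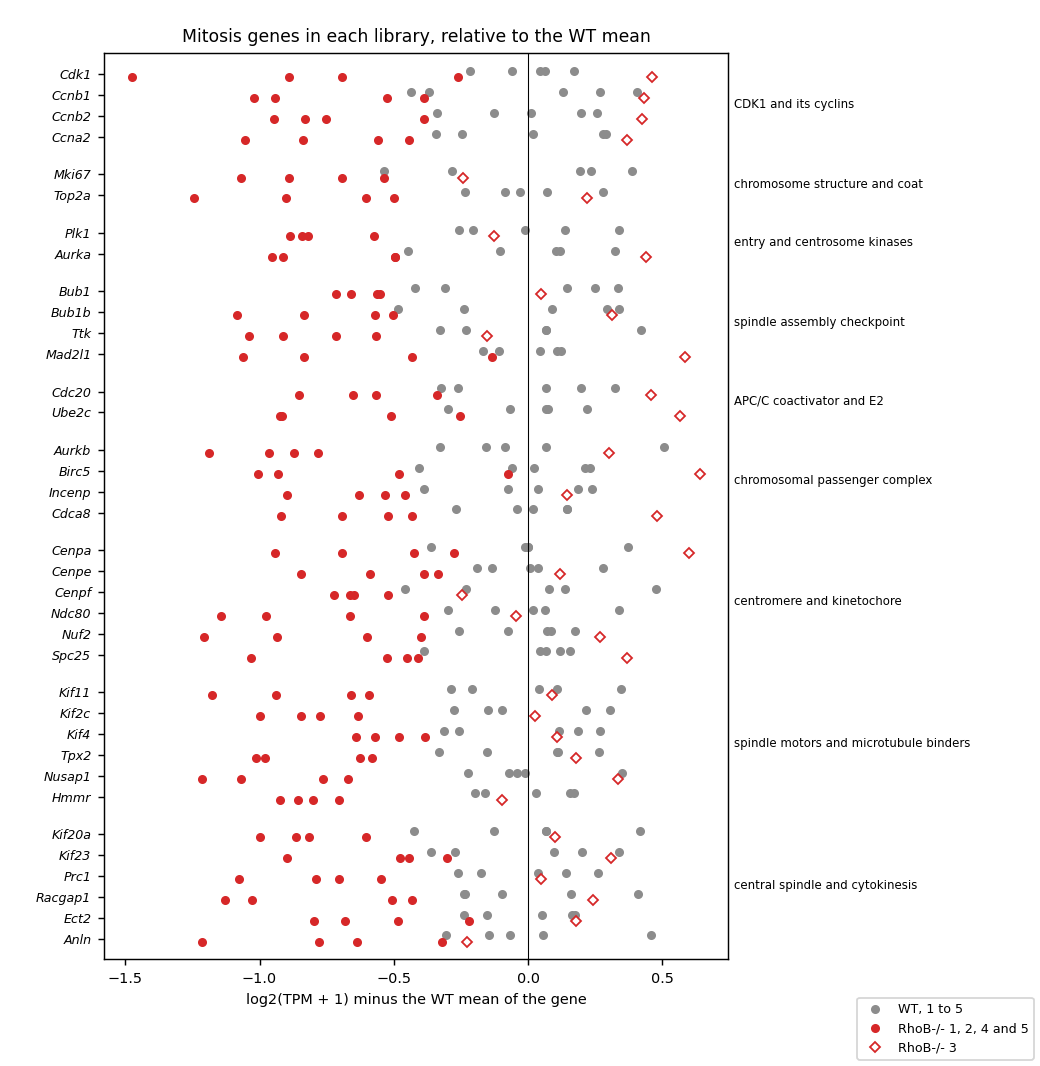
Each point is 1 library's log2(TPM + 1) minus the mean of the 5 WT libraries, for each of the 36 genes (rows, grouped by role); grey points are WT, filled red points RhoB-/- replicates 1, 2, 4 and 5, and open diamonds RhoB-/- replicate 3. The filled red points lie left of 0 for every gene, and the diamonds lie right of 0 for 29 genes and left for 7.

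No gene had groups that did not overlap when all 5 RhoB-/- libraries were counted, against 8.55% of all tested genes whose RhoB-/- libraries all lay below WT. When replicate 3 was set aside, a choice made after its values were seen, the remaining 4 RhoB-/- libraries were below all WT libraries for 28 genes, or 77.8%, against 19.8% of all tested genes. Without it, all 36 genes were lower at an adjusted p below 0.05 (limma, adjusted p from 0.00132 to 0.0433), against 22.8% of all tested genes, and the median log2 fold change was -0.73, where that of all tested genes was -0.17. The mean TPM of the 4 libraries was then 32.6% to 51.8% below the WT mean. Replicate 3 was the highest RhoB-/- library for all 36 genes, so leaving it out had to make each log2 fold change more negative. Values without it, here and below, are therefore descriptive. Leaving out other libraries moved the count the other way. It was 9 without WT replicate 5 and 8 without WT replicate 3, but 1 without WT replicate 4, 4 without WT replicate 1, 3 without RhoB-/- replicate 4, and 2 without each of WT replicate 2 and RhoB-/- replicates 1, 2 and 5. In the last 7 fits the share of mitosis genes called lower was below the share of all tested genes. Without RhoB-/- replicate 5, the library that retained Rhob, the 2 calls stood beside 8.48% of all tested genes. The median log2 fold change of the 36 genes was then -0.47, where that of all tested genes was -0.15. All 36 log2 fold changes stayed negative in each of the 10 fits. Only Hmmr was called in all 10, followed by Plk1 in 8 and Ttk in 5.

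**Figure D2:**
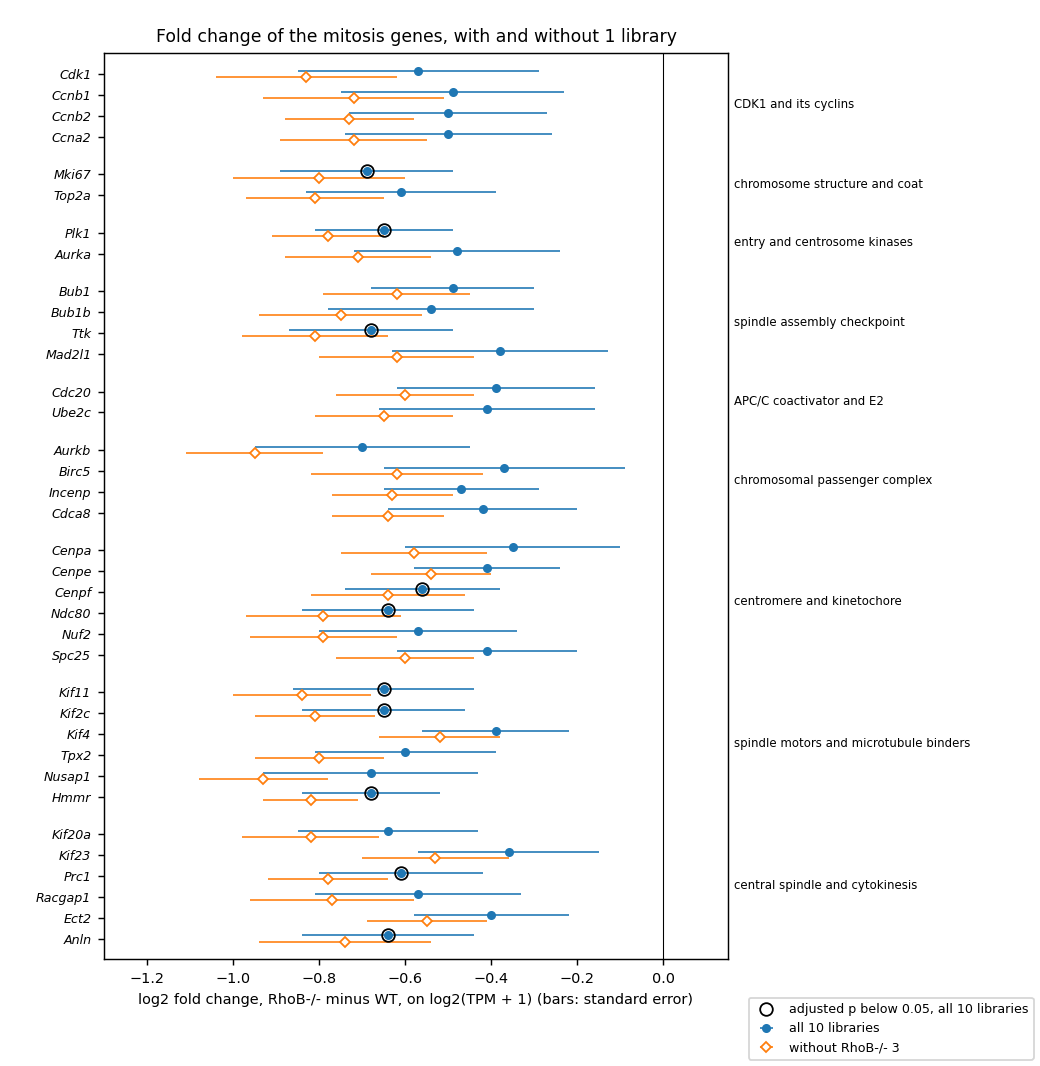
Log2 fold change of each mitosis gene with its standard error, from all 10 libraries (blue) and without RhoB-/- replicate 3 (orange); black rings mark the 10 genes with an adjusted p below 0.05 over all 10 libraries. All estimates lie below 0, from -0.70 to -0.35 in blue and from -0.95 to -0.52 in orange.

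**Figure D3:**
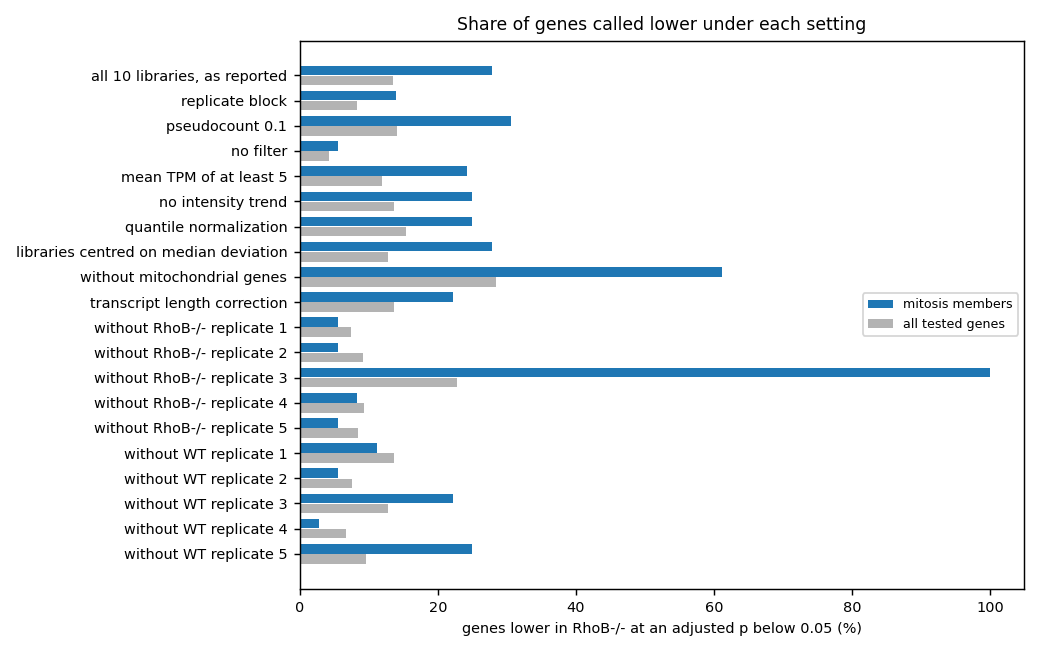
Share of genes called lower in RhoB-/- mice at an adjusted p below 0.05, for the mitosis genes (blue bars) and for all tested genes (grey bars), under each setting and with each library left out. The blue bar exceeds the grey bar with all 10 libraries (27.8% against 13.5%) and without RhoB-/- replicate 3 (36 of 36 genes against 22.8%). It is the shorter one in 7 of the 10 fits that leave out 1 library. Replicate 3 was the highest RhoB-/- library for every mitosis gene, so leaving it out had to make their fold changes more negative.

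The stretches before the annotated starts of these genes are described next, and any link to the levels above was not tested. Promoters of G2 and mitosis genes are known for CCAAT boxes, bound by NF-Y, and for the cell cycle genes homology region (CHR), bound by the MuvB complexes that hold them silent in resting cells and, with B-MYB and FOXM1, activate them in G2. RefSeq promoters (GRCm38.p6) were found for 31 of the 36 genes, all but Aurkb, Ccna2, Incenp, Kif20a and Tpx2. The 250 bases before the start were searched on both strands for CCAAT and for TTTGAA or TTCGAA as the CHR. CCAAT was present in 24 of the 31 (77.4%), against 37.5% of 27025 genes with a promoter in the same table and 65.9% of 41 genes of DNA replication. At least 2 were present in 17 of the 31 (54.8%), against 11.5% of all genes and 31.7% of the replication genes. The CHR letters were present in 11 (35.5%), against 19.6% and 17.1%. Within the last 100 bases, 6 genes (19.4%) had both motifs, against 1.63% of all genes and 0 of the 41 replication genes. A match is a run of letters and does not show that a factor binds there. The promoters of 6 members are shown, as the 100 bases before the start on the strand of the gene. They are examples that hold a motif, from genes whose stretch overlaps no annotated exon. Other such stretches, those of Anln, Birc5, Bub1b, Kif2c, Mad2l1 and Nuf2, hold neither motif. Ccnb2, Hmmr and Ttk show repeated CCAAT boxes, Top2a and Kif11 CCAAT with a CHR near the start, and Mki67 a CHR with no CCAAT letters in this window. Capitals mark CCAAT or its complement ATTGG, and TTTGAA or its complement TTCAAA.
Ccnb2, chr9:70421555-70421654, minus strand: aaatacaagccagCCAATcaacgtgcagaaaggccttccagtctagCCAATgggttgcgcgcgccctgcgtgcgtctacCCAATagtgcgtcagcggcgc
Hmmr, chr11:40733438-40733537, minus strand: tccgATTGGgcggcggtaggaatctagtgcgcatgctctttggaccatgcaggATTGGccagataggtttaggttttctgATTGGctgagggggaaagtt
Ttk, chr9:83834589-83834688, plus strand: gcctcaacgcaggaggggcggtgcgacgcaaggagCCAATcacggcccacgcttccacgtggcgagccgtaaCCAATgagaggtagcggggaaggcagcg
Top2a, chr11:99024190-99024289, minus strand: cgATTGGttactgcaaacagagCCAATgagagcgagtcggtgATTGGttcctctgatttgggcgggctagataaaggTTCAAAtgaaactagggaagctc
Kif11, chr19:37376282-37376381, plus strand: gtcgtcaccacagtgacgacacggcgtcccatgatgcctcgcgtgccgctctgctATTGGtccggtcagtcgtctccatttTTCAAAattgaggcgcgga
Mki67, chr7:135716380-135716479, minus strand: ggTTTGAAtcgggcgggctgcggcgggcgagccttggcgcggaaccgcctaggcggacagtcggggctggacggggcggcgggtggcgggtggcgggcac
In Ccnb2 the boxes begin 87, 54 and 21 bases before the start, and in Ttk 65 and 28 bases before it. In Top2a and Kif11 the CHR begins 23 and 19 bases before the start, downstream of the nearest CCAAT letters at 58 and 45 bases.

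**Figure D4:**
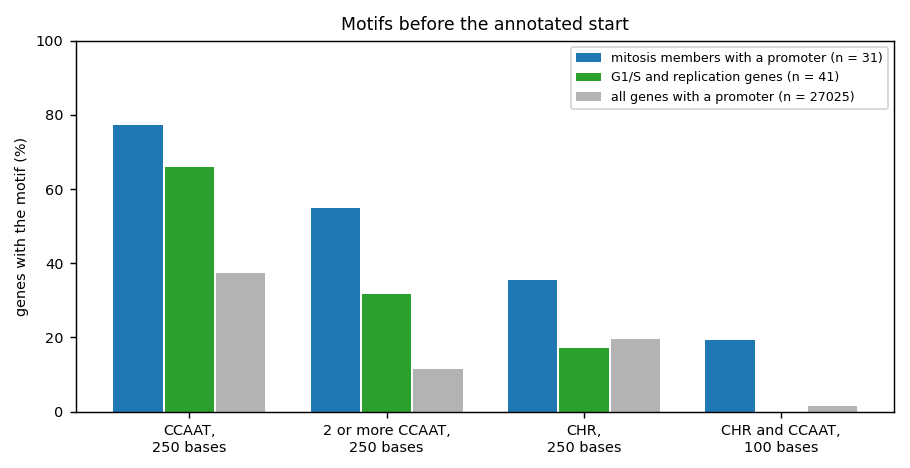
Percentage of genes whose RefSeq promoter holds each motif, for the 31 mitosis genes with a promoter, 41 G1/S and replication genes, and all 27025 genes with a promoter. The bars of the mitosis genes are the tallest in each of the 4 comparisons, for example 54.8%, 31.7% and 11.5% with 2 or more CCAAT.

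Of CDK1 and its cyclins, which start mitosis, 0 of 4 genes passed the test (limma), and 0 had an unadjusted p below 0.05. Of all tested genes, 13.5% and 24.9% were lower at these thresholds. The roles described from here on hold few genes each, and differences between them were not tested. Cdk1 (ENSMUSG00000019942, chromosome 10, 69335146 to 69352938, minus strand, GRCm38) was at 55.7, 54.9, 51.0, 60.0 and 45.7 TPM in WT replicates 1 to 5, and at 32.5, 18.5, 73.8, 44.3 and 28.3 TPM in RhoB-/- replicates 1 to 5. RhoB-/- replicate 3 was the highest of all 10 libraries and the other 4 RhoB-/- libraries were the lowest. Its log2 fold change was -0.57 (SE 0.28, limma adjusted p = 0.163), and -0.83 without that library. The partner cyclins Ccna2, Ccnb1 and Ccnb2 had log2 fold changes of -0.50, -0.49 and -0.50, and their level in RhoB-/- replicate 3 was also above every WT library.

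Mki67 and Top2a act on the chromosomes themselves. Mki67 encodes Ki-67, the protein used to stain cycling cells, which coats condensed chromosomes. Mki67 (ENSMUSG00000031004, chromosome 7, 135689784 to 135716361, minus strand) had 41.8, 40.7, 29.0, 46.7 and 24.1 TPM in WT and 24.1, 16.4, 29.8, 21.5 and 18.7 TPM in RhoB-/- replicates 1 to 5. Here replicate 3 of RhoB-/- lay within the WT range, and replicate 1 was level with the lowest WT library. The means were 36.5 ± 9.49 and 22.1 ± 5.21 TPM (SD, n = 5 each), a log2 fold change of -0.69 (SE 0.20, limma adjusted p = 0.0307). It was called in 3 of the 10 fits that left out 1 library, with adjusted p of 0.015 to 0.0893. Top2a, the topoisomerase that untangles sister chromatids, had a log2 fold change of -0.61 (limma adjusted p = 0.0739) and -0.81 without RhoB-/- replicate 3.

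Plk1 and Aurka are kinases of mitotic entry that mature the centrosomes. Plk1 (ENSMUSG00000030867, chromosome 7, 122159439 to 122169873, plus strand) was at 55.6, 61.8, 48.4, 71.1 and 46.8 TPM in WT and at 30.8, 31.3, 51.3, 37.3 and 29.9 TPM in RhoB-/- replicates 1 to 5. Only RhoB-/- replicate 3 reached the WT range. The log2 fold change was -0.65 (SE 0.16, limma adjusted p = 0.0175), and the adjusted p exceeded 0.05 in 2 of the 10 fits that left out 1 library, at most 0.0537. Aurka had a log2 fold change of -0.48 (limma adjusted p = 0.17) and 19.4 TPM in RhoB-/- replicate 3, above every WT library.

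Of the spindle assembly checkpoint genes, 1 of 4 passed, beside 13.5% of all tested genes that were lower. Ttk (ENSMUSG00000038379, chromosome 9, 83834689 to 83872389, plus strand), the kinase that starts checkpoint signaling at kinetochores, had 5.65, 5.64, 4.41, 7.50 and 4.06 TPM in WT and 2.86, 2.09, 4.71, 3.28 and 2.37 TPM in RhoB-/- replicates 1 to 5. All RhoB-/- libraries except replicate 3 were below WT. Its log2 fold change was -0.68 (SE 0.19, limma adjusted p = 0.0266). The kinase Bub1, its relative Bub1b and Mad2l1, the MAD2 protein that binds CDC20, had -0.49, -0.54 and -0.38 (limma adjusted p = 0.0865, 0.134 and 0.303).

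The APC/C activator Cdc20, which that checkpoint holds back, and the ubiquitin-conjugating enzyme Ube2c did not pass (limma), with 0 of 2 at an unadjusted p below 0.05. At that unadjusted threshold 24.9% of all tested genes were lower. Ube2c (ENSMUSG00000001403, chromosome 2, 164769898 to 164778822, plus strand), whose mean level was the highest of the 36 genes in both genotypes, had 69.7, 69.3, 63.0, 77.1 and 53.6 TPM in WT and 46.1, 34.4, 98.3, 55.3 and 34.5 TPM in RhoB-/- replicates 1 to 5. Replicate 3 of RhoB-/- was above and replicates 1, 2 and 5 were below all WT libraries. The log2 fold changes were -0.41 for Ube2c and -0.39 for Cdc20 (limma adjusted p = 0.252 and 0.23).

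The chromosomal passenger complex corrects faulty attachments and later acts in cytokinesis, and 0 of its 4 genes passed (limma), with 2 at an unadjusted p below 0.05. The shares of all tested genes that were lower were 13.5% and 24.9%. Its kinase Aurkb (ENSMUSG00000020897, chromosome 11, 69045647 to 69051664, plus strand) had 19.9, 17.8, 16.9, 27.4 and 14.9 TPM in WT and 10.6, 7.77, 23.7, 9.94 and 9.25 TPM in RhoB-/- replicates 1 to 5. RhoB-/- replicate 3 was at more than double the level of each other RhoB-/- library and within the WT range. The log2 fold change of -0.70 (SE 0.25, limma adjusted p = 0.0679) was the most negative of the 36, and it was -0.95 without RhoB-/- replicate 3. The scaffold Incenp and the targeting subunits Birc5 (survivin) and Cdca8 (borealin) had -0.47, -0.37 and -0.42. Birc5 was at 61.2 TPM in RhoB-/- replicate 3, 1.55 times the WT mean and the greatest ratio of the 36 genes in that library.

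At the centromere and kinetochore, 2 of 6 genes passed, beside 13.5% of all tested genes that were lower. Ndc80 (ENSMUSG00000024056, chromosome 17, 71496100 to 71526857, minus strand), the microtubule-binding subunit that names the NDC80 complex, had 5.98, 6.94, 6.70, 8.60 and 5.18 TPM in WT and 3.80, 2.44, 6.37, 4.81 and 2.86 TPM in RhoB-/- replicates 1 to 5. Its log2 fold change was -0.64 (SE 0.20, limma adjusted p = 0.0423), with RhoB-/- replicate 3 alone in the WT range. Nuf2 and Spc25, of the same complex, had -0.57 and -0.41 (limma adjusted p = 0.0939 and 0.185). Cenpf, a large outer kinetochore protein, had -0.56 (limma adjusted p = 0.0412), and Cenpe, the kinetochore kinesin, had -0.41. Cenpa, the histone that marks the centromere, had the least negative log2 fold change at -0.35 (limma adjusted p = 0.33).

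Beside 13.5% of all tested genes that were lower, 3 of 6 spindle motors and microtubule binders passed. These were Kif11, the motor that pushes the spindle poles apart, with a log2 fold change of -0.65 (limma adjusted p = 0.0468), the microtubule depolymerase Kif2c with -0.65 (limma adjusted p = 0.0332), and the spindle assembly factor Hmmr. Hmmr (ENSMUSG00000020330, chromosome 11, 40701395 to 40733422, minus strand), shown in full after its values were seen, had 8.07, 9.0, 6.75, 8.91 and 6.96 TPM in WT and 4.10, 3.69, 7.32, 4.46 and 3.91 TPM in RhoB-/- replicates 1 to 5. The 4 low RhoB-/- libraries lay close together, at 4.04 ± 0.326 TPM (SD, n = 4), and replicate 3 fell inside the WT range. Hmmr had a log2 fold change of -0.68 (standard error 0.16) and, of the 36, the smallest adjusted p (0.013, limma). Nusap1, which bundles spindle microtubules (ENSMUSG00000027306, chromosome 2, 119618298 to 119651244, plus strand), had 9.95, 10.2, 10.4, 13.7 and 8.85 TPM in WT and 5.78, 3.96, 13.5, 6.23 and 4.48 TPM in RhoB-/- replicates 1 to 5. Its log2 fold change was equally -0.68, but with a standard error of 0.25 it did not pass (limma adjusted p = 0.0715). Tpx2, which activates Aurora A on the spindle, had -0.60, and the chromosome-arm kinesin Kif4 had -0.39 (limma adjusted p = 0.0596 and 0.111).

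Among genes of the central spindle and cytokinesis, 2 of 6 passed, beside 13.5% of all tested genes that were lower. Anln (ENSMUSG00000036777, chromosome 9, 22332012 to 22389188, minus strand), the anillin scaffold that ties RhoA to actin and myosin at the cleavage furrow, had 8.46, 9.31, 7.97, 12.6 and 7.02 TPM in WT and 6.93, 3.27, 7.46, 4.78 and 5.38 TPM in RhoB-/- replicates 1 to 5. RhoB-/- replicate 1 was just below and replicate 3 just above the lowest WT library. Its log2 fold change was -0.64 (SE 0.20, limma adjusted p = 0.0386). Prc1, which bundles the microtubules of the central spindle, had -0.61 (limma adjusted p = 0.0373). Kif20a, a kinesin of the same structure, had -0.64 and an adjusted p of 0.0505 (limma), just outside the threshold. Kif23 and Racgap1, which form centralspindlin, had -0.36 and -0.57, and Ect2, the exchange factor that activates RhoA at the furrow, had -0.40 (limma adjusted p = 0.228, 0.105 and 0.121).

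RhoB-/- replicate 3 did not raise all members alike. Its log2 level relative to the WT mean ranged from -0.25 (Cenpf) to 0.64 (Birc5). The 7 genes it held below the WT mean were Cenpf, Mki67, Anln, Ttk, Plk1, Hmmr and Ndc80. The 14 genes it held above every WT library included Birc5, Cenpa, Mad2l1, Ube2c, Cdca8, Cdk1 and all 3 cyclins. Transcript length moved with this pattern. The median was 0.40 for the 12 genes whose longest annotated transcript is shortest (up to 3334 bases) and 0.15 for the 12 longest (from 4086 bases), and in no other library was the difference as large. Over 12862 tested genes with a length, the rank correlation of a gene's value with its length was -0.23 in RhoB-/- replicate 3, between -0.02 and 0.10 in the other RhoB-/- libraries and between -0.33 and 0.21 in WT libraries, a description across genes of single libraries. With each library smoothed on transcript length, a correction chosen after the data were seen, 8 of the 36 genes were called lower and 0 higher, where all genes split into 13.7% lower and 17.7% higher. When RhoB-/- replicate 3 was also left out, 29 were called lower, beside 16.0% of all genes.

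The share of TPM taken by mitochondrially encoded genes differed among the RhoB-/- libraries, without following the mitosis genes in all of them. It was lowest in RhoB-/- replicate 3, at 10.3%, and highest in replicate 2, at 22.4%, which had the lowest value of all 10 libraries for 32 of the 36 genes. RhoB-/- replicate 5, with the second lowest mean level of the mitosis genes, had only 12.1%, and WT libraries had 17.5% to 26.5%. With TPM rescaled after the mitochondrial genes were removed, the mean level of the 36 genes relative to WT was -0.62, -0.99, 0.04, -0.56 and -0.95 on the log2 scale in RhoB-/- replicates 1 to 5. Replicate 3 was then above every WT library for 5 genes and below every WT library for 3. On this scale 22 of the 36 genes were lower, or 61.1%, against 28.4% of all tested genes (limma, adjusted p below 0.05).

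In a list of 133 other mitosis genes, compiled by hand, 25 were lower (18.8%) and 1 was higher at an adjusted p below 0.05 (limma), beside 13.5% and 7.73% of all tested genes. The median log2 fold change was -0.38, where that of all tested genes was -0.13. With RhoB-/- replicate 3 left out, 80 of the 133 were lower and 1 was higher, beside 22.8% lower and 8.01% higher among all tested genes. Of 15 regulators, 4 were lower, among them Mastl, which restrains the phosphatase that opposes CDK1 (log2 fold change -0.79, adjusted p = 0.0106), Wee1, which inhibits CDK1 (-0.70, adjusted p = 0.0123), and Bora, which lets Aurora A activate PLK1 (-0.70, adjusted p = 0.0193). Of 18 genes of separase, cohesin and condensin, 5 were lower, including the condensin II subunits Ncapg2 and Ncapd3 (-0.79 and -0.59) and the cohesin acetyltransferase Esco2 (-0.78). Of 34 other kinetochore genes, 6 were lower, including Hjurp, which loads CENP-A (-0.60, adjusted p = 0.00549, limma), Dsn1 (-0.64) and Cenpn (-0.54). Of 26 spindle genes, 6 were lower, led by Dlgap5, which stabilises spindle fibers (-0.95, adjusted p = 0.00431, limma), Depdc1a (-0.67) and Ckap2l (-0.68).

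Of 14 genes of the APC/C and its partners, 2 were lower (14.3%, beside 13.5% of all tested genes), Anapc5 (log2 fold change -0.50) and Cdc16 (-0.42), while Cdc23 had -0.33 (limma adjusted p = 0.0754). These subunits are present outside mitosis too. Of 8 cytokinesis genes, 0 were lower (limma, 1 at an unadjusted p below 0.05) and Rock2, the kinase that RhoA activates to drive myosin contraction, was higher, from 22.9 to 40.6 TPM in the mean (log2 fold change 0.77, adjusted p = 0.00519, limma). Shcbp1 and Cep55 had -0.58 and -0.41 (adjusted p = 0.0581 and 0.189), and Rhoa itself, added after its value was seen, 0.10 (limma adjusted p = 0.482). Of 18 transcription regulators of the cell cycle, 2 were lower (11.1%, below the 13.5% of all tested genes). They were E2f8 (-0.72, limma adjusted p = 0.0144) and E2f1 (-0.64, limma adjusted p = 0.0233), E2F genes that are not specific to the G2 and mitosis programme. Lin52, a MuvB subunit, had -0.48 (limma adjusted p = 0.055). Foxm1 and Mybl2 (B-MYB), added after their values were seen, had -0.50 and -0.20 (limma adjusted p = 0.0827 and 0.383).

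Genes of the preceding phase were compared as well. Of 51 genes of G1/S and DNA replication, 20 were lower (39.2%, beside 13.5% of all tested genes) and 0 were higher (limma, 0 higher also at an unadjusted p below 0.05), with a median log2 fold change of -0.48. The 3 with the smallest adjusted p were Uhrf1, which carries DNA methylation through replication (log2 fold change -0.91, adjusted p = 0.00819, limma), Dtl (-0.76) and the helicase subunit Mcm3 (-0.83). Relative to WT, the mean level of this list was -0.59, -0.96, 0.08, -0.37 and -0.55 on the log2 scale in RhoB-/- replicates 1 to 5, beside -0.59, -1.0, 0.21, -0.49 and -0.80 for the mitosis genes. The difference between the lists was not tested.

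Markers of cell types also differed between the genotypes, and their part in the mitosis values was not tested. Of all tested genes, 13.5% were lower and 7.73% higher. Of 13 tested crypt stem and progenitor markers, 5 were lower and 1 was higher. Sox9, Lrig1 and Smoc2 had log2 fold changes of -1.16, -0.85 and -1.05 (limma adjusted p = 0.000249, 0.00243 and 0.00604), and Prom1 was higher, from 119.3 to 210.7 TPM in the mean. Lgr5, Axin2, Znrf3, Myc and Cd44 were not called (-0.31, -0.33, -0.49, -0.30 and -0.26). Ascl2 and Rnf43, also not called, went the other way (0.20 and 0.09). The summed level of the list was 239.2 to 287.3 TPM in WT and 231.1 to 396.7 TPM in RhoB-/- libraries. Prom1 alone gave 99.9 to 140.3 TPM of this sum in WT and 145.1 to 304.5 TPM in RhoB-/- libraries, so the sum does not follow the other markers. In the mean over this list RhoB-/- replicate 3 was again nearest to WT, at -0.06, with -0.54 to -0.34 in the other RhoB-/- libraries. Of 12 colonocyte markers, 6 were higher and 0 were lower (limma, 0 lower also at an unadjusted p below 0.05), with 2.15 for the sodium-proton exchanger Slc9a3, 2.49 for Saa1 and 1.41 for Ceacam20. Car1, Ms4a12, Slc26a3, Guca2b, Guca2a and Cyp2c55 were not called (0.39, 0.32, 0.28, 0.09, -0.03 and -0.29). The list's summed level was 15690 to 23860 TPM in WT and 19550 to 35750 TPM in RhoB-/- libraries. For this list RhoB-/- replicate 3, at 0.77, lay among the other RhoB-/- libraries, at 0.65 to 1.29. Of 6 tested T cell markers, 4 were higher, among them Gzma, Cd8a and Cd3g (2.32, 1.10 and 0.96), and the list summed to 42.1 to 50.7 TPM in RhoB-/- libraries, 48.7 TPM in replicate 3. No marker of these lists was at 0 in all libraries. The mitosis genes summed to 603.5 to 916.6 TPM in WT and 357.7 to 945.1 TPM in RhoB-/- libraries.

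**Figure D5:**
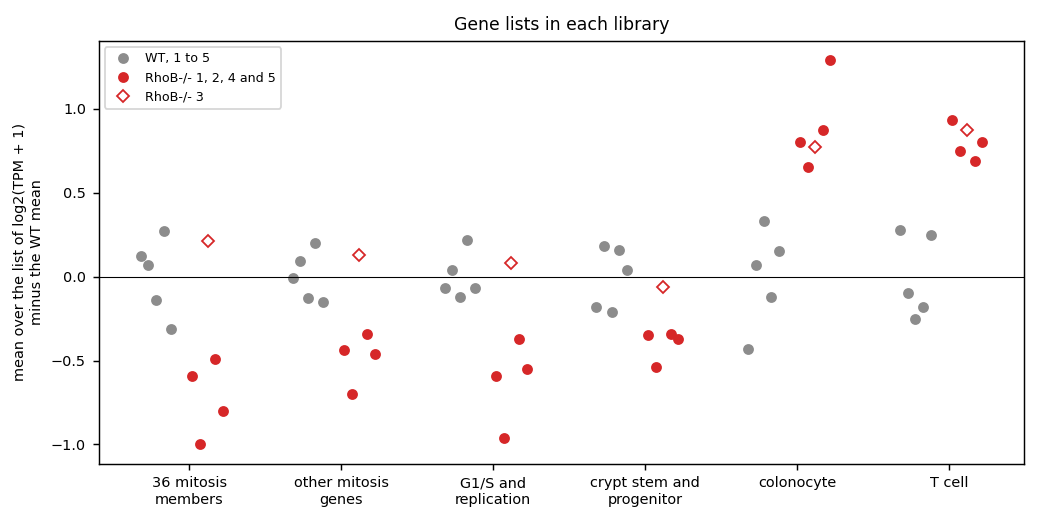
Mean over each gene list of log2(TPM + 1) minus the WT mean of the gene, with 1 point per library; grey is WT, filled red RhoB-/- replicates 1, 2, 4 and 5, and the open diamond RhoB-/- replicate 3. For the mitosis, replication and crypt lists the diamond lies among the WT points (0.21, 0.08 and -0.06), and for the colonocyte and T cell lists it lies with the other RhoB-/- libraries (0.77 and 0.87).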

How the data were processed

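Libraries were sequenced as paired-end reads of 150 bp, and the deposited TPM values were made by the authors with SeqPrep, Sickle, HISAT2, StringTie and RSEM. The labels name GRCm38.p6 as the build, and tool versions are not given in the sources used here. TPM keeps no depth, so counting error is unknown, and a group of genes that takes more of a library lowers all others. Genotypes were compared with limma 3.58.1 in R 4.3.3 (lmFit, eBayes with an intensity trend, no block) on log2(TPM + 1). A mean of 1 TPM or more was required, which left 12870 of 55487 genes, with Benjamini-Hochberg adjustment over these genes. All 36 mitosis genes passed this filter. The fit was tested on simulated data for this comparison over 12870 genes, of which 200 were changed by 1 on the log2 scale. It recovered 89% of them, with 3.78% of the calls on unchanged genes. The simulated noise was independent between genes and libraries, and the changed genes were drawn from those with higher levels. The simulation therefore does not show how the fit behaves for smaller changes or for genes that move together in a library, as the mitosis genes do. Replicate numbers are shared by the genotypes in the labels, and nothing says whether they pair the mice. Deviations of same-numbered libraries correlated at -0.0874 to 0.072, which cannot show how the mice were handled. Positions and transcript lengths are from GENCODE M21 (GRCm38), and promoters from RefSeq (GRCm38.p6). The mitosis genes and the other lists were chosen with earlier results of these data known. All 36 genes are named, with full values for the most negative log2 fold change of each of 9 roles, and of the other lists the 3 genes with the smallest adjusted p, except marker lists given by counts alone. Alternatives were other pseudocounts, filters and normalizations, a replicate block, no intensity trend, the thresholds of the study, leaving out each library and, chosen after seeing the data, a correction for transcript length. Litters and cages are not given, so mice may share them. The p-values treat the mice as independent and measure the spread within each genotype.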

Additional observations from a re-analysis of the deposited data

Results flagged for a closer look

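Among 74 groups of 5 values (36 mitosis genes and Rhob in each genotype), 13 held a library standing far apart, and about 3.7 (1 in 20) would be found by chance. In 11 of these it was RhoB-/- replicate 3, above the other RhoB-/- libraries, with Aurka at 19.44, Bub1 at 5.51, Cdc20 at 49.2, Aurkb at 23.68, Cdca8 at 32.41, Kif2c at 7.33, Kif4 at 8.14, Tpx2 at 14.22, Nusap1 at 13.53, Hmmr at 7.32 and Kif20a at 11.13 TPM. These genes vary together, so the 11 values are not independent of each other. Spc25 in WT replicate 5 was far below the other WT libraries, at 11.44 TPM. Rhob in the library labelled RhoB-/- replicate 5, at 110.87 TPM, was far above the other RhoB-/- libraries.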

How the results depend on the processing

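No log2 fold change of a mitosis gene turned positive under any alternative (753 values), and no mitosis gene was called higher. Some of these values could not change: the thresholds of the study, the replicate block and the fit with no intensity trend keep the same log2 fold changes. The median log2 fold change of the 36 genes moved by less than the spread (SD) between WT libraries under all alternatives, while the counts of genes called lower did not. With all 10 libraries, 10 mitosis genes, 25 other mitosis genes and 20 replication genes were lower (limma). With no filter on low TPM the counts were 2, 9 and 3, beside 4.26% of all 28114 genes, where it was 13.5% of 12870. With the replicate block they were 5, 17 and 12 (8.23% of all genes), although nothing says whether the numbers pair the mice. With mitochondrial genes left out they were 22, 60 and 36 (28.4% of all genes). When genes under a mean of 5 TPM were left out, 15 of the 89 other mitosis genes still tested were lower (11.9% of all genes). With the length correction and without RhoB-/- replicate 3 the counts were 29, 63 and 35 (16.0% of all genes). Leaving out each library in turn gave 1 to 36, 6 to 80 and 2 to 39, the highest without RhoB-/- replicate 3 and the lowest without WT replicate 4. Apart from these constructions, the cause of the changes was not tested. TPM keeps no depth, so the precision of the low genes, such as Cenpf or Ttk, is known only from the spread between mice.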

Other observations

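Of 14 tested G1 cyclins and CDK inhibitors, 2 were lower in RhoB-/- mice (14.3%, near the 13.5% of all tested genes). By limma 0 were higher, also at an unadjusted p below 0.05, where 7.73% of all tested genes were higher after adjustment. The log2 fold changes were -0.66 for the CDK inhibitor Cdkn2c (limma adjusted p = 0.0339), -0.63 for the G1 kinase Cdk4 (0.0471) and -0.45 for its relative Cdk6 (0.122). Cdkn1a, the p21 inhibitor, added after its value was seen, averaged 191.5 ± 54.2 TPM (SD, n = 5) over WT libraries and 239.2 ± 22.9 TPM (SD, n = 5) over RhoB-/- libraries, and the log2 fold change was 0.36 (limma adjusted p = 0.158).

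Secretory cell markers also differed. Of 10 goblet cell markers 4 were higher, of 9 tested enteroendocrine markers 5 were lower, and of 5 tested tuft cell markers 3 were higher. Of all tested genes, 7.73% were higher and 13.5% lower. The 4 goblet cell markers were Retnlb, Clca1, Fcgbp and Spink4. Muc2, Zg16, Spdef, Atoh1 and Tff3 were not called (log2 fold changes -0.19, 0.05, 0.05, 0.05 and 0.46). Agr2 had -0.59 (limma adjusted p = 0.0523). In each of these lists the summed TPM of the 5 RhoB-/- libraries, replicate 3 included, did not overlap that of the 5 WT libraries. For the tuft list the gap was narrow, with 20.41 TPM in WT replicate 1 and 20.74 TPM in RhoB-/- replicate 3. The summed TPM of B and plasma cell markers was 3.04 to 13.0 in WT and 5.49 to 57.8 in RhoB-/- libraries, that of myeloid markers 3.22 to 10.2 and 4.56 to 22.8, that of fibroblast markers 4.58 to 6.80 and 7.45 to 36.9, and that of smooth muscle markers 1.41 to 6.46 and 1.69 to 3.89.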
